A study of Glycine max with 4 samples.

Results

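The 3 genes described here encode seed proteins of soybean. They are a pair of 2S albumin genes, Glyma13g36400 on chromosome 13 and Glyma12g34160 on chromosome 12, and the P34 thiol protease gene, Glyma08g12270 on chromosome 8. They were taken by identifier, and all 3 were found among the 66210 gene models listed in every count file. All plants were of the cultivar Williams 82, and polyadenylated RNA was sequenced, with no transgene or treatment named for any group. Embryos at mid-maturation (B1) gave green cotyledon pairs of 150 to 250 mg, and embryos at late maturation (AA1) gave yellow pairs of 200 to 350 mg. Dry seeds of 100 to 250 mg were used whole, and so held a little seed coat and axis. Seedlings grown on soil gave their cotyledons 6 days after imbibition. Each stage was represented by 1 library, so no difference between stages has a replicate check and no test across samples was possible.

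2S albumins are small seed storage proteins rich in cysteine and methionine. They are made as precursors that are cut into a large and a small chain, and they are kept in protein storage vacuoles until germination, when they are broken down as a source of nitrogen and sulphur. A soybean 2S albumin is the source of the peptide lunasin. P34 belongs to the papain family of cysteine proteases, but in it the catalytic cysteine is replaced by glycine. It was first found with oil bodies, lies in the protein storage vacuole and is a major soybean allergen.

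Total counts were 16120894 in B1, 38011608 in AA1, 21512278 in dry seeds and 28190429 in the seedling. The names of the genes are those under which they were chosen, since the files list identifiers only. The reference gene table, of assembly Glycine_max_v4.0, lists the symbols P34 on chromosome 8 and GM2S-1 on chromosome 13, but 0 of the 66210 identifiers of the files matched it. For the same reason the tissue labels were not checked against marker genes. No correction for gene length was made, so the genes are compared mainly by how their counts changed between libraries. Ranks and levels set against those of other genes are uncorrected for length. Intervals are given at 95% and hold counting error alone, and reads copied by PCR are not independent molecules. In whole tissue, fewer cells making a transcript and less of it per cell cannot be told apart.

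The transcripts of the 3 genes made up a large part of the mid-maturation cotyledon library and were scarce in the seedling library. Together they took 17.8% of all counts in B1 (exact Clopper-Pearson interval 17.80% to 17.84%). Their joint share was 0.300% in AA1 (0.298% to 0.302%), 0.0804% in dry seeds (0.0792% to 0.0816%) and 0.00153% in the seedling (0.00139% to 0.00168%). The joint share was thus lower in each later library, and no interval overlapped another.

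Glyma13g36400, the 2S albumin gene on chromosome 13, had the most counts of any gene model in B1. It had 1947456 counts in B1, 62644 in AA1, 4684 in dry seeds and 211 in the seedling. As scaled CPM, which is the count per 1000000 of a library size adjusted by the trimmed mean of M-values (TMM), its levels were 208000, 1563, 201 and 4.96 in the same order. By count it ranked 1 in B1, 59 in AA1, 511 in dry seeds and 18798 in the seedling. In the seedling library 44565 gene models had a count, so it stood in the upper part of these but far from the top.

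Glyma12g34160, the 2S albumin gene on chromosome 12, had 198254 counts in B1, 36548 in AA1, 8910 in dry seeds and 61 in the seedling. Its scaled CPM was 21175, 912, 382 and 1.43. It ranked 15 by count in B1, 108 in AA1, 222 in dry seeds and 27135 in the seedling. Like its partner it was highest in B1 and lowest in the seedling, with a smaller difference between B1 and AA1.

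Glyma08g12270, the P34 gene, had 726561 counts in B1, 14869 in AA1, 3708 in dry seeds and 160 in the seedling. Its scaled CPM was 77601, 371, 159 and 3.76. Its rank by count was 3 in B1, 246 in AA1, 732 in dry seeds and 20992 in the seedling. For each of the 3 genes the order of the libraries was the same, and the counting intervals of neighbouring libraries did not overlap. In the seedling library all 3 genes still lay above the floor of 3 counts, which is 0.07 scaled CPM there.

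**Figure D1:**
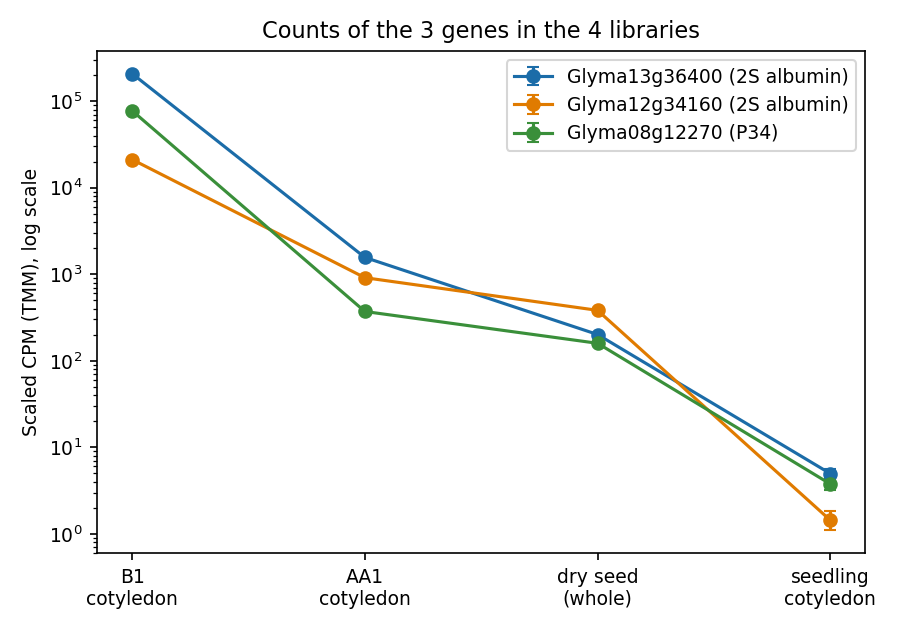
Scaled CPM (log axis) of the 3 genes in the 4 libraries, 1 library per stage; error bars are 95% Poisson intervals of the counts and are mostly smaller than the points. All 3 lines go down from B1 to the seedling, from 208000 to 4.96 for Glyma13g36400. The line of Glyma12g34160 crosses that of Glyma13g36400 between AA1 and dry seed and crosses back between dry seed and seedling. It crosses that of P34 between B1 and AA1 and crosses back between dry seed and seedling. Levels are uncorrected for gene length, on which the place of a crossing depends.

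The first comparison set AA1 cotyledons against B1 cotyledons, over the change of the embryo from green to yellow. All 3 genes were more than 4-fold lower in AA1. P34 was 209-fold lower (exact binomial interval 206 to 213) and Glyma13g36400 was 133-fold lower (132.0 to 134.1). Glyma12g34160 was 23.2-fold lower (23.0 to 23.5). Among all gene models that reached 1 scaled CPM in B1 or AA1, 29154 in number, 16.6% were lower by 4-fold or more in AA1. A distance as large as that of P34 was seen for 107 of them, 0.367%, the gene itself included. The number was 177 for Glyma13g36400 (0.607%) and 1282 for Glyma12g34160 (4.40%). Since counts under 3 were set to 3, gene models scarce in B1 could not show such distances, so these shares depend on abundance.

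The size of this step depended on the scaling. With total counts in place of TMM the differences were 115-fold for P34, 73.3-fold for Glyma13g36400 and 12.8-fold for Glyma12g34160. Among the 100 gene models with the most counts in B1, a group favoured in B1 by its choice, the median gene model was 3.14-fold lower in AA1. In that group 5 gene models were as far down as P34, 8 as far as Glyma13g36400 and 23 as far as Glyma12g34160, each count including the gene itself.

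The second comparison was of whole dry seeds with late-maturation cotyledons, which differ in tissue as well as in stage. Glyma13g36400 was 7.78-fold lower in dry seeds (7.55 to 8.01), past the 4-fold distance. Of 26397 gene models, 9.75% were at least 4-fold lower. Glyma12g34160 was 2.39-fold lower (2.33 to 2.44) and P34 was 2.33-fold lower (2.25 to 2.42), so neither reached that distance. As far down as Glyma13g36400 were 4.16% of gene models, against 19.0% for Glyma12g34160 and 19.5% for P34. The median of the 100 gene models most abundant in B1 was 2.53-fold lower in this step, close to the values of Glyma12g34160 and P34.

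The third comparison was of seedling cotyledons with whole dry seeds, across germination, again with a difference in tissue. The storage proteins themselves are broken down over this period, but the counts measure transcripts only. All 3 genes were more than 4-fold lower in the seedling, where 15.7% of 31169 gene models were at least 4-fold lower. Glyma12g34160 was 267-fold lower (207 to 349), a distance seen for 89 gene models or 0.286%. Glyma13g36400 was 40.5-fold lower (35.3 to 46.7) and P34 42.3-fold lower (36.1 to 49.9). As far down were 1.56% and 1.51% of gene models. Gene models scarce in dry seeds could not lie as far down as any of the 3 genes, so these shares too depend on abundance. Among the 100 gene models with the most counts in B1 the median was 96.9-fold lower in this step, and 62 of them were as far down as Glyma13g36400, 60 as far as P34 and 22 as far as Glyma12g34160. With a pseudocount of 1 scaled CPM the value of Glyma12g34160 was 158-fold, its seedling level of 1.43 being close to the value added.

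The 3 genes therefore differed in where the largest drop lay. For Glyma13g36400 and P34 it lay between B1 and AA1, and for Glyma12g34160 between dry seed and seedling, with TMM and with each of 4 other scalings. A level at least 4-fold lower in every one of the 3 steps was found for 29 of 24709 gene models that could be compared in all of them, or 0.117%. Glyma13g36400 was 1 of these 29, and the other members were not. With the filter and the floor of 3 counts, gene models scarce in B1 could not meet this rule, so the share depends on abundance.

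**Figure D2:**
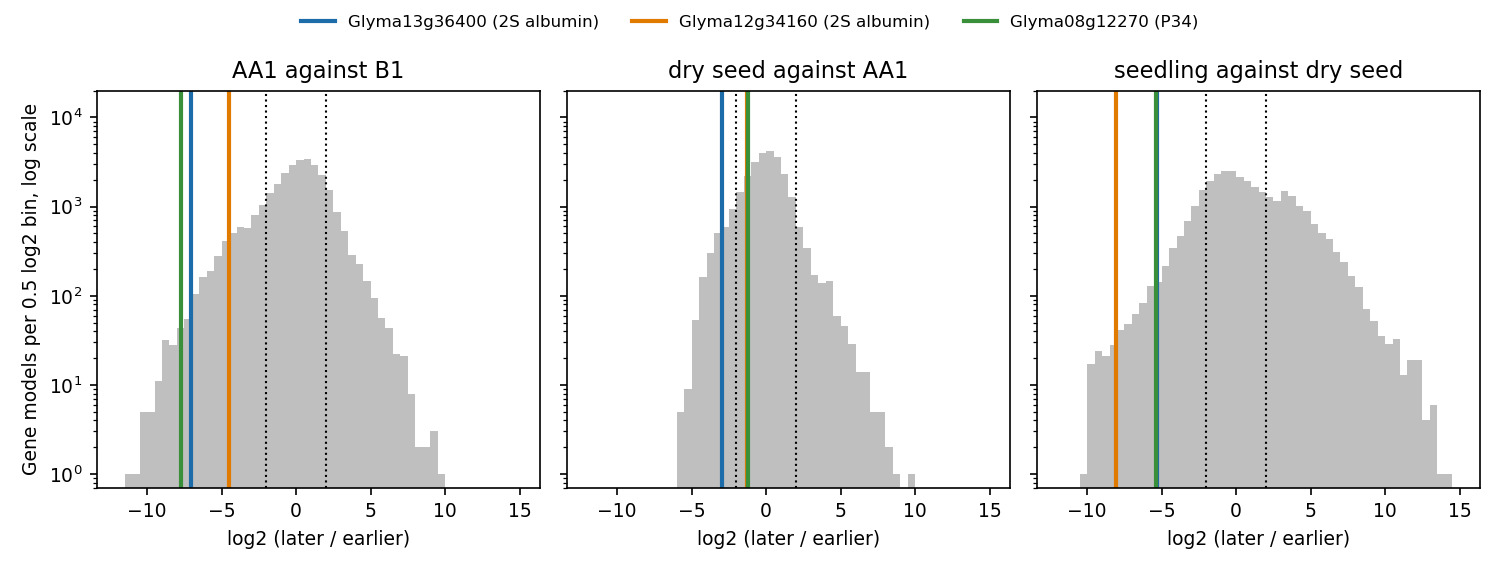
Histograms of the log2 ratio of the later to the earlier library for all gene models compared in each of the 3 steps (grey, count axis on a log scale), with the 3 genes as coloured lines and the 4-fold distance dotted. The lines of P34 and Glyma13g36400 stand farthest left in AA1 against B1, and that of Glyma12g34160 in seedling against dry seed; the lines of Glyma12g34160 and P34 nearly coincide in dry seed against AA1, and those of Glyma13g36400 and P34 in seedling against dry seed.

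The balance within the 2S albumin pair was then followed from library to library. Dry seeds were used whole and the other libraries were of cotyledons. Changes of a ratio to or from dry seeds thus go with a difference in tissue as well as in stage. A ratio of 2 genes within a library does not depend on the scaling, and its change between libraries does not depend on gene length. Glyma12g34160 gave 9.24% of the pair's 2145710 counts in B1 (exact Clopper-Pearson interval 9.20% to 9.28%). It gave 36.8% of 99192 counts in AA1 (36.5% to 37.1%) and 65.5% of 13594 in dry seeds (64.7% to 66.3%). In seedling cotyledons it gave 22.4% of 272 counts (17.6% to 27.9%). In counts uncorrected for length, the chromosome 13 gene thus had the most of the pair in B1, AA1 and the seedling. In dry seeds the chromosome 12 gene had the most.

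Expressed as Glyma12g34160 counts per Glyma13g36400 count, the ratio was 5.73 times higher in AA1 than in B1 (exact conditional interval 5.65 to 5.81). It was a further 3.26 times higher in dry seeds than in AA1 (3.14 to 3.39). From dry seed to seedling it was 6.58 times lower (4.91 to 8.92). The seedling ratio was still 2.84 times that of B1 (2.10 to 3.79).

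Reads shared between near-identical copies could blur this balance, since no source used here says how the authors treated reads with several matches. If a fixed part of the reads of 1 gene were counted for the other, that part is limited by the library in which the other gene has the smallest share. With the largest such part taken off Glyma12g34160 and given back to Glyma13g36400, the share of Glyma12g34160 was 30.4% in AA1, 62.0% in dry seeds and 14.5% in the seedling. By construction, this left Glyma12g34160 no counts in B1. With the largest such part of Glyma13g36400 given back to Glyma12g34160 instead, that share was 14.1% in B1, 56.2% in AA1 and 34.2% in the seedling. By construction, this left Glyma13g36400 no counts in dry seeds. In that second case the chromosome 12 gene, not the chromosome 13 gene, held most of the pair's counts in AA1. A spill in both directions at once was not computed, and how far such reads entered the counts was not tested.

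P34 was set against each 2S albumin gene in the same way, with the same difference in tissue for dry seeds. P34 counts per Glyma13g36400 count were 0.373 in B1, 0.237 in AA1, 0.792 in dry seeds and 0.758 in the seedling. The ratio was 1.57 times lower in AA1 than in B1 (1.54 to 1.60) and 3.34 times higher in dry seeds than in AA1 (3.18 to 3.50). Between dry seed and seedling it changed by a factor of 0.958, with an interval of 0.771 to 1.19 that includes no change.

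P34 counts per Glyma12g34160 count were 3.66 in B1, 0.407 in AA1, 0.416 in dry seeds and 2.62 in the seedling. From B1 to AA1 this ratio was 9.01 times lower (8.83 to 9.19), and from dry seed to seedling 6.30 times higher (4.65 to 8.63). Between AA1 and dry seed the factor was 1.02 (0.980 to 1.07). Thus the interval of the change included no change for P34 and the chromosome 12 gene in the second step, and for P34 and the chromosome 13 gene in the last. Against both 2S albumin genes summed, P34 counts per count were 0.339 in B1, 0.150 in AA1, 0.273 in dry seeds and 0.588 in the seedling.

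**Figure D3:**
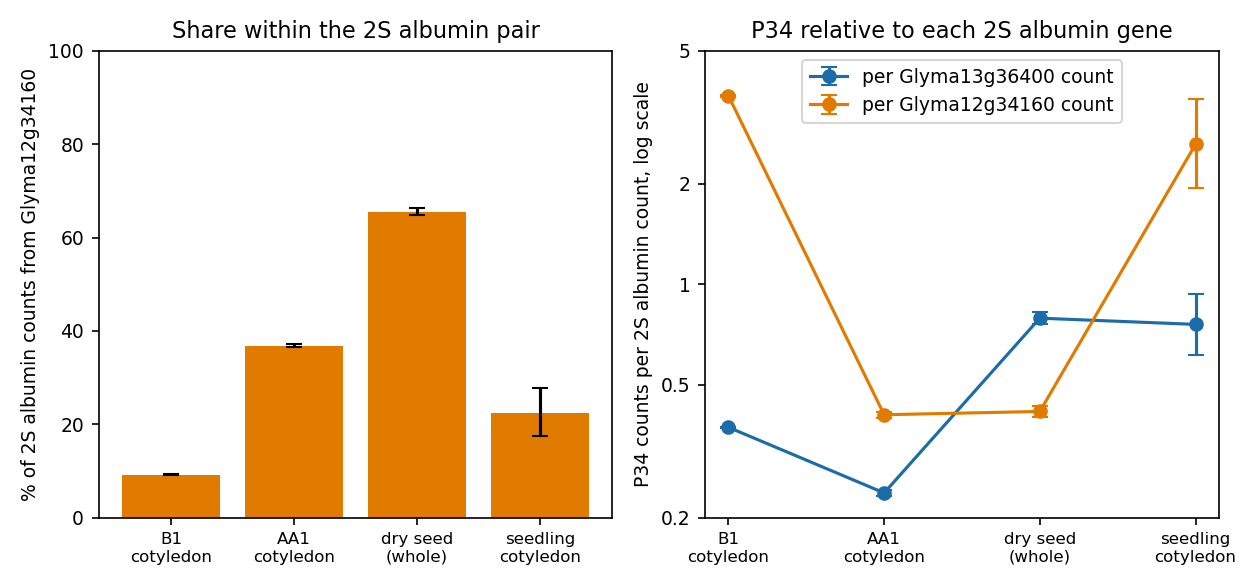
Left, the percentage of 2S albumin counts that came from Glyma12g34160 in each library; right, P34 counts per count of each 2S albumin gene (log axis); error bars are exact 95% intervals for counting error. The share of Glyma12g34160 goes from 9.24% in B1 to 65.5% in dry seeds and is 22.4% in the seedling, and the right panel shows a level stretch between AA1 and dry seed for 1 gene and between dry seed and seedling for the other.

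Glyma13g36400 and P34 had 2 of their 3 most similar gene models in common, while those of Glyma12g34160 were others. Likeness was the Euclidean distance between log2(scaled CPM + 1) over the 4 libraries after each profile's mean was taken off, among 5776 gene models, the members left out, that reached 50 scaled CPM in any library. Glyma16g33400 was nearest to Glyma13g36400, at a distance of 0.824, its scaled CPM being 74286 in B1, 427 in AA1, 47.5 in dry seeds and 2.02 in the seedling. Glyma08g45530 (1.51) and Glyma02g01590 (1.71) followed. Of the gene models nearest to P34, Glyma02g01590 lay at 1.15, Glyma08g45530 at 1.24 and Glyma01g10900 at 1.26. With 4 libraries, such distances describe these libraries only.

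Nearest to Glyma12g34160 were Glyma13g42320 at 0.83, Glyma19g13060 at 0.84 and Glyma10g04280 at 0.86. Glyma13g42320 had 14534 scaled CPM in the B1 library, 616 in AA1, 305 in dry seeds and 2.35 in the seedling. Between the members, Glyma13g36400 and P34 lay 1.49 apart, so that P34 was nearer to Glyma13g36400 than any of the 5776 except Glyma16g33400. The distance was 2.77 between Glyma12g34160 and P34 and 3.01 between the 2S albumin genes. By this measure the chromosome 13 gene was closer to P34 than to its 2S albumin partner.

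The gene models beside the members on the chromosomes did not share their levels. Of the 5 gene models on either side of Glyma13g36400 in the order of identifiers, 4 had no count in any library and the highest level reached was 30.8 scaled CPM. Beside Glyma12g34160, 6 of 10 had no count and the highest level was 32.1 scaled CPM. Beside P34, 1 of 10 had no count and the highest level was 66.4 scaled CPM. The B1 level of a member was thus 660 to 6758 times the highest level of any of its neighbours, in counts uncorrected for length.

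None of the neighbours that reached 10 scaled CPM in any library was lower in each later library, as the members were. Glyma13g36410, next to the chromosome 13 gene, stood at 16.0 scaled CPM in the B1 library, 17.6 in AA1, 30.8 in dry seeds and 9.27 in the seedling. Glyma12g34150, next to the chromosome 12 gene, stood at 13.2, 20.3, 32.1 and 8.18. These 2 neighbours were both highest in dry seeds, unlike the 2S albumin genes beside them, which were highest in B1. With TMM scaling they were lowest in the seedling, as those genes were. With total counts in its place both neighbours were lowest in B1. Glyma13g36410 had 150 of 16120894 counts in B1 and 394 of 28190429 in the seedling, and Glyma12g34150 had 124 and 348.

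Farther out, Glyma13g36430 had 10.1 scaled CPM in the B1 library, 3.24 in AA1, 2.92 in dry seeds and 9.97 in the seedling, and Glyma12g34210 had 10.9, 1.42, 0.04 and 12.2. Both were lower in AA1 and dry seeds than in B1 and the seedling. Near P34, Glyma08g12290 was highest in dry seeds at 66.4 scaled CPM, against 11.0 in B1, 50.6 in AA1 and 18.8 in the seedling. Glyma08g12220 stood at 56.9, 19.1, 18.3 and 20.7 scaled CPM in the order of the stages, so it was highest in B1, as P34 was. Glyma08g12240 stood at 8.44, 4.57, 1.33 and 17.1. Glyma08g12280, the model directly after P34, was too low for that rule and was singled out after its values were seen. It had 74 counts in B1, 1 in AA1, 1 in dry seeds and 6 in the seedling, so that it too had most of its counts in B1.

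**Figure D4:**
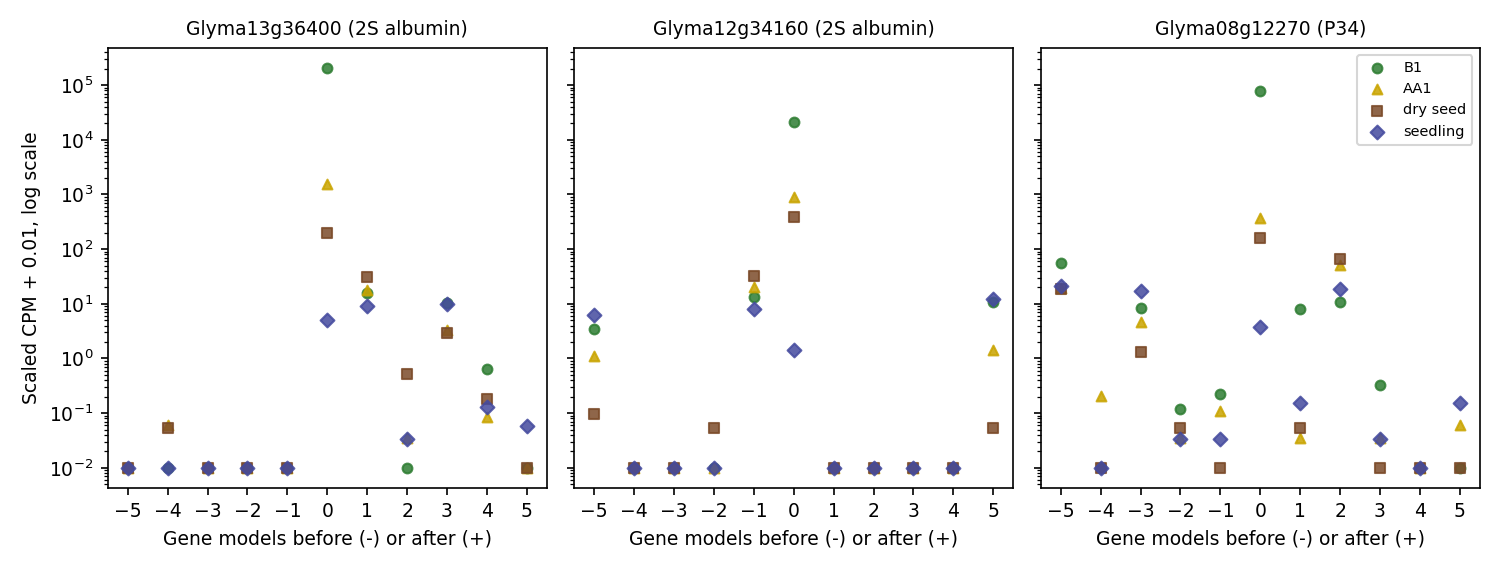
Scaled CPM + 0.01 (log axis) in the 4 libraries for each member (position 0) and the 5 gene models before and after it in the order of identifiers; points at 0.01 have no count. Each member stands far above its neighbours in B1, and the highest neighbours, at 30.8, 32.1 and 66.4 scaled CPM, are highest in dry seeds.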

How the data were processed

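Per the labels' protocols, poly-A RNA went through 2 rounds of selection, and 100 ng of it was broken up and reverse transcribed from random primers. After 15 PCR cycles, single reads of 76 bp were taken, and no step marks the strand. Per the file headers, the deposited values are counts of mapped reads per gene model, not normalized. The submitters' processing notes name Bowtie. Its version, the genome build, the annotation and the treatment of reads with several matches are given in none of the sources used here.

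Scaled library sizes used TMM factors (edgeR 4.0.16, run in R 4.3.3; 0.581 for B1, 1.05 for AA1, 1.08 for dry seed, 1.51 for seedling). Folds of the members are ratios of scaled CPM with exact binomial intervals. Changes of ratios have exact conditional intervals from Fisher's test. For the share of all gene models at least 4-fold apart, at least 1 scaled CPM in either library was required and counts under 3 were set to 3. Counts of 66210 gene models were also simulated with Poisson error alone, from the mean profile of the 2 libraries of each step. Changes were placed in models of middle level only, and 100 of 100 models changed 8-fold were recovered in each step. Of unchanged models, 2 of 26371 were called in the first step, 0 of 25378 in the second and 2 of 30653 in the third. The simulation held no spread between samples or from PCR, so these are not error rates for the real libraries. Alternatives were 4 other scalings (size factors of DESeq2 1.42.0, total counts, upper quartile, totals without the 100 most abundant gene models of any library), a pseudocount, other filters and thinning to 16120894 counts.

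The members, the neighbours and the rules were chosen with earlier results of these data known. Named besides the members are the 3 gene models nearest in profile and, of 5 neighbours on each side, those reaching 10 scaled CPM. Glyma08g12280 did not reach that level and was named after its values were seen.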

Additional observations from a re-analysis of the deposited data

How the results depend on the processing

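All folds of the members stayed in the same direction and on the same side of 4-fold under every alternative, and their sizes moved as follows. For AA1 against B1, total counts gave 73.3-fold lower for Glyma13g36400, 12.8 for Glyma12g34160 and 115 for P34. In the same gene order, DESeq2 size factors gave 149.7, 26.1 and 235.3, and the upper quartile gave 149.6, 26.1 and 235.1. Totals without the 100 most abundant gene models gave 153, 26.8 and 241, and thinned libraries gave 145, 25.3 and 227. For dry seed against AA1, DESeq2 size factors gave 7.23, 2.22 and 2.17, and totals without the 100 most abundant gave 8.96, 2.75 and 2.69. Thinning gave 7.50 for Glyma13g36400 and 2.29 for Glyma12g34160, and total counts gave 2.32 for Glyma12g34160. For seedling against dry seed, total counts gave 29.1, 191 and 30.4, and a pseudocount of 1 scaled CPM gave 33.9, 158 and 33.6. Totals without the 100 most abundant gave 33.4 for Glyma13g36400 and 34.9 for P34, and the upper quartile gave 47.6 for Glyma13g36400. Ratios between members cannot change with the scaling.

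An assumed fixed spill of reads between the 2S albumin genes, chosen after seeing the data, moved the share of Glyma12g34160. Given back to Glyma13g36400, it left 30.4% in AA1, 62.0% in dry seed and 14.5% in the seedling, and by construction nothing in B1. Given back to Glyma12g34160, it gave 14.1% in B1, 56.2% in AA1 and 34.2% in the seedling, and by construction all counts of the pair in dry seed.

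The number of all gene models at least 4-fold lower in AA1 than in B1 was 4828, against 2727 with total counts, 2763 with a filter of 5 scaled CPM and 2488 with the pseudocount. The number higher was 3836, against 8216 with total counts and 2238 with the pseudocount. For dry seed against AA1, 2575 were lower, against 1065 with the filter and 712 with the pseudocount. There 1574 were higher, against 916 with the filter, 718 with the pseudocount and 2463 with no filter beyond 3 counts. For seedling against dry seed, 9813 were higher, against 5984 with the filter and 5952 with the pseudocount. The seedling values rest on 61 to 211 counts, which limits the precision of counting, while the spread between samples was not measured. No paired analysis was possible because each stage has 1 library.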
